A study of Mus musculus with 59 samples.

Results

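The MHC class II presentation genes described here are the 8 genes Ciita, H2-Aa, H2-Ab1, H2-Eb1, Cd74, H2-DMa, H2-DMb1 and Ctss, taken by symbol from the deposited tables. All 8 were found among the 55421 rows of the gene table and again among the 33282 rows of the intron table. All 8 had a mean of at least 1 in both tables, which was the filter for testing. The libraries come from primary mammary tumors of 20 methylparaben, 20 propylparaben and 19 vehicle samples, 59 in all, and total RNA was taken from a flash-frozen portion of each tumor. Every group has the background B6.FVB-Tg(MMTV-PyVT)634Mul/LellJ with genotype PyMT (+/-), so the oncogene, polyomavirus middle T under the mouse mammary tumor virus promoter that drives it in mammary epithelium, is shared by the treated and the vehicle tumors. Methylparaben and propylparaben are preservatives that differ in the alkyl group of their ester, methyl in one and propyl in the other. Dose, length of exposure and age are not in the labels. They also do not say that each library is a separate animal, so every p-value reflects variation among these libraries, which may be partly technical.

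MHC class II molecules carry peptides from proteins taken up by a cell to its surface, where CD4+ T cells read them. Dendritic cells, macrophages and B cells express them constitutively, and interferon gamma can induce them in other cells, epithelial cells included. Ciita is the coactivator that turns the class II genes on, H2-Aa and H2-Ab1 encode the alpha and beta chain of the I-A molecule, and H2-Eb1 encodes the beta chain of the I-E molecule. Cd74 encodes the invariant chain, which fills the peptide groove during assembly. Ctss encodes cathepsin S, a lysosomal protease that cuts the invariant chain, and H2-DMa with H2-DMb1 encodes the editor that exchanges its remaining fragment for peptide.

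The level used throughout is the deposited normalized count, which is CPM scaled by a factor per library and is called scaled CPM below. Libraries held 1166502 to 2032789 reads on genes and 307255 to 1059351 reads in introns. All 7 epithelial markers (Krt8, Krt18, Krt19, Epcam, Cdh1, Cldn3 and Cldn7) were detected, and their mean log2(scaled CPM + 1) was 7.47 ± 0.16 in methylparaben, 7.46 ± 0.21 in propylparaben and 7.36 ± 0.28 in vehicle tumors (SD, n = 20, 20 and 19). In bulk tumor RNA, fewer cells of a type and less RNA per cell cannot be told apart.

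Of the 8 genes, all protein coding, 5 lie on chromosome 17 in the major histocompatibility complex, in GRCm38 coordinates. H2-DMa is at chr17:34119541-34139101 and H2-DMb1 at chr17:34153072-34160230, both on the plus strand. H2-Ab1 is at chr17:34257689-34269419 (plus), H2-Aa at chr17:34282744-34287823 (minus) and H2-Eb1 at chr17:34305867-34316674 (plus). Exons of H2-DMa overlap exons of Brd2 on the other strand, so reads there cannot be assigned without strand, and the strand setting is not given in the sources used here. H2-DMb1 has a near-identical neighbor, H2-DMb2, and the split of reads between them is uncertain.

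The known class II promoter holds an X box and a Y box a fixed distance apart, bound by the RFX and NF-Y complexes that recruit Ciita. RefSeq promoter windows (GRCm38.p6, 250 bases before to 50 after the start site) were available for 5 of the 8 genes: H2-Aa, H2-Eb1, H2-DMa with 2 windows, H2-DMb1 and Ctss. The letters GNAAC, an X box core, followed after 26 to 29 bases by ATTGG, the Y box core, were searched on both strands. The spacing was set after these windows had been read. The pair was found in H2-Aa, H2-Eb1 and H2-DMb1, and in 0.697% of all 32851 promoter windows. GNAAC alone was in 84.8% and ATTGG alone in 37.4% of them. These windows are shown because the class II genes below vary together across tumors, with the pair in capitals. In Ctss, which has no such pair, the capitals mark an interferon response element, searched as GAAA and GAAA with any 2 bases between them, which was held by 3.44% of all windows.
H2-Aa (chr17:34287774-34288073, minus): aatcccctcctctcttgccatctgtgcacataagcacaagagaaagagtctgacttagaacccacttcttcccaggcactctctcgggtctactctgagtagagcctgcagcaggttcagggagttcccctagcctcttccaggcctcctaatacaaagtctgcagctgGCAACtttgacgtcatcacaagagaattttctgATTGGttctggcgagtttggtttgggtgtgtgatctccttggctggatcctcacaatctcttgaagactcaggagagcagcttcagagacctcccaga
H2-Eb1 (chr17:34305617-34305916, plus): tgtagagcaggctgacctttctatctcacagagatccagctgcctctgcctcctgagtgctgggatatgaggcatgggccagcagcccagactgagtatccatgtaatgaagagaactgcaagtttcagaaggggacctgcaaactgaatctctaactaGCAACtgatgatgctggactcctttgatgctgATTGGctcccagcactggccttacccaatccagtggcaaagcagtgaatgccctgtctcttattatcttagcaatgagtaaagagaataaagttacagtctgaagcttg
H2-DMb1 (chr17:34152941-34153240, plus): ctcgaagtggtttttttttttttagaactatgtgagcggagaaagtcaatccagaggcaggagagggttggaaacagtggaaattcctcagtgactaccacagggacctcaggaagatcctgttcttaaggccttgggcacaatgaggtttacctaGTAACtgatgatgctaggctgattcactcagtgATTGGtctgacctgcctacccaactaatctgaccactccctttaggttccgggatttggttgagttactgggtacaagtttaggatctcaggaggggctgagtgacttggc
Ctss (chr3:95526536-95526835, plus): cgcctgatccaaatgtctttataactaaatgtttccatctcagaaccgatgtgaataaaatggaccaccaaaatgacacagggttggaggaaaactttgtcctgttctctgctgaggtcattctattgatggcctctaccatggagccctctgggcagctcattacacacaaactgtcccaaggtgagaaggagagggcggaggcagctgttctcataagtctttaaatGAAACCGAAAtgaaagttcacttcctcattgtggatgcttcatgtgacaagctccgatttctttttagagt

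The X box core began 81 bases before the start site in H2-Aa, 91 in H2-Eb1 and 94 in H2-DMb1, and 27 or 28 bases lay between the cores. The longest run shared by the H2-Eb1 and H2-DMb1 elements was aactgatgatgct, 13 bases long, across the X box. In H2-Aa the same place holds TGACGTCA, a cyclic AMP response element found in 1.79% of all windows and in no window of the other members. Neither window of H2-DMa held the pair. Of the other class II genes with a window, H2-Oa and H2-Eb2 held it and H2-DMb2 and H2-Ob did not. A match of letters is a description and does not show binding.

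The other 3 genes lie on other chromosomes, all on the plus strand. Ciita is at chr16:10480059-10528418, Cd74 at chr18:60803848-60812652 and Ctss at chr3:95526786-95556403. An exon of Ciita overlaps Dexi on the other strand, with the same limit as for H2-DMa and Brd2.

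Levels between genes are compared here as scaled CPM per kilobase of annotated exon, over all 59 tumors. Ctss was highest at 341 ± 75.6 (SD) and exceeded H2-Eb1 in all 59 tumors. The classical chains followed in the order H2-Eb1 at 87.8 ± 29.2, H2-Ab1 at 72.4 ± 22.8 and H2-Aa at 61.4 ± 20.6, and each was above the next in 56 and 57 of 59 tumors. Cd74 at 57.6 ± 19.4 did not separate as clearly, with H2-Aa above it in 46 of 59 tumors and a mean log2 ratio of 0.10 ± 0.19. H2-DMb1 at 28.8 ± 8.49 was above H2-DMa at 6.77 ± 1.92 in all tumors, and Ciita was lowest at 1.52 ± 0.492. The exon length is the union over transcripts, so a gene with long minor transcripts is placed too low. The order also assumes that reads cover whole transcripts, which was not tested.

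Values per tumor are given in scaled CPM, as the lowest, the median and the highest tumor of a group. Ciita, the coactivator, had 8.12, 15.1 and 21.6 in methylparaben, 8.19, 15.8 and 28.3 in propylparaben, and 4.52, 12.9 and 22.2 in vehicle tumors. The groups overlapped, and 3 of 19 vehicle tumors lay below every treated tumor. Ciita rested on 11 to 78 reads per library, the fewest of the 8 genes in the lowest library.

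Among the peptide-binding chains, H2-Aa had 142, 270.0 and 350.1 in methylparaben, 84.5, 264 and 345 in propylparaben, and 47.7, 214 and 386 in vehicle tumors. The range was widest in vehicle, which held both the lowest tumor (replicate 8) and the highest (replicate 5). H2-Ab1 had 111, 200.1 and 284 in methylparaben, 97.8, 209 and 286 in propylparaben, and 47.7, 174 and 313 in vehicle tumors. For H2-Ab1, 5 of 19 vehicle tumors lay below every treated tumor and 1 above every treated tumor. H2-Eb1 had 115, 190.4 and 253 in methylparaben, 60.4, 182 and 253 in propylparaben, and 38.2, 154 and 288 in vehicle tumors. For H2-Eb1, 7 vehicle tumors lay below every methylparaben tumor, and 2 below every propylparaben tumor.

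Cd74, the invariant chain, had 54.2, 107 and 128 in methylparaben, 36.9, 110.2 and 158 in propylparaben, and 18.1, 82.9 and 155 in vehicle tumors. Of the treated tumors, 17 of 20 methylparaben and 14 of 20 propylparaben lay above the vehicle median. Ctss, the protease that cuts it, had 391, 482 and 575 in methylparaben, 323, 463 and 679 in propylparaben, and 163, 459 and 814 in vehicle tumors. The Ctss medians lay close together, with 11 of 20 tumors of each treated group above the vehicle median.

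H2-DMa, of the peptide editor, had 13.1, 25.96 and 34.6 in methylparaben, 13.8, 22.7 and 35.8 in propylparaben, and 11.2, 20.2 and 38.97 in vehicle tumors. H2-DMb1, its partner, had 24.7, 49.8 and 67.9 in methylparaben, 17.4, 52.9 and 70.7 in propylparaben, and 20.95, 45.2 and 75.5 in vehicle tumors. Both genes overlapped between all groups, and the lowest H2-DMb1 value was in propylparaben replicate 1, not in vehicle.

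**Figure D1:**
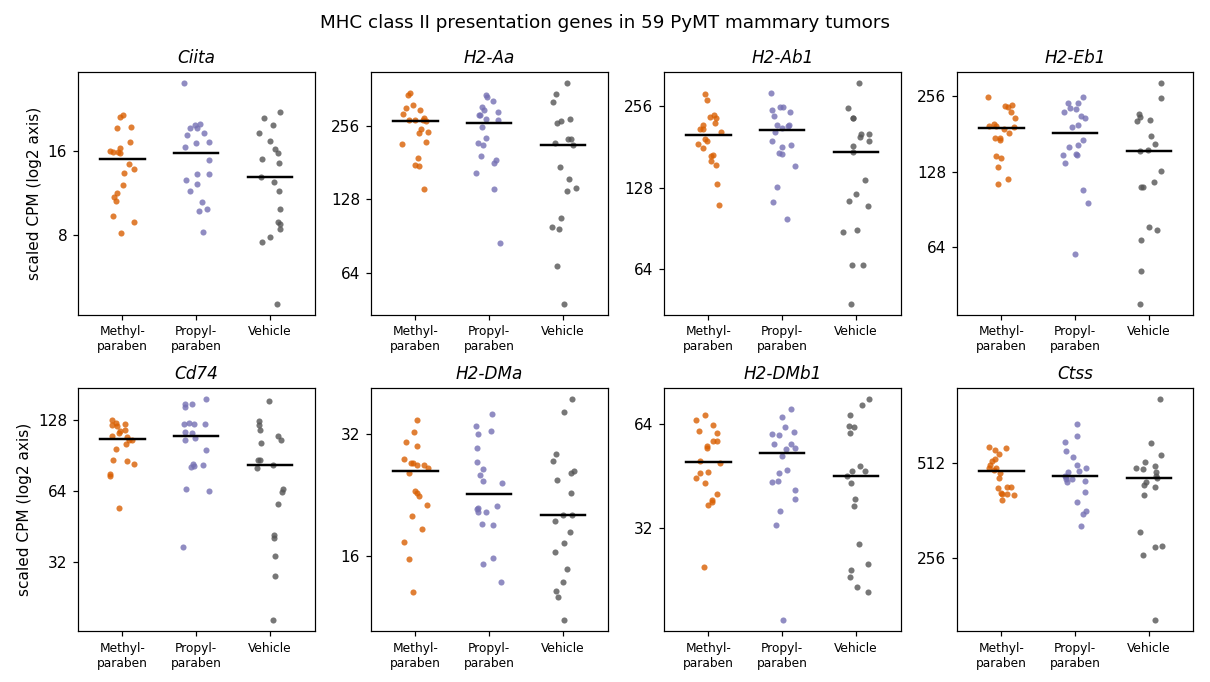
Scaled CPM on a log2 axis for the 8 genes in each of 59 tumors, in 20 methylparaben, 20 propylparaben and 19 vehicle tumors, with bars at the medians. The groups overlap for every gene, and 2 to 5 vehicle tumors lie below every treated tumor for 7 of the genes, but 0 for H2-DMb1, whose lowest tumor is a propylparaben one.

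Methylparaben tumors had higher mean levels of all 8 genes than vehicle tumors, but no gene passed the test. The 4 genes of the class II chains and the invariant chain differed most. H2-Aa averaged 255 ± 56.1 in methylparaben and 199 ± 96.2 scaled CPM in vehicle tumors (SD, n = 20 and 19), a log2 fold change of 0.52 ± 0.18 (SE) with an adjusted p of 0.0882. Cd74 averaged 103 ± 20.1 in methylparaben and 80.2 ± 38.0 in vehicle tumors, a log2 fold change of 0.51 ± 0.18 with an adjusted p of 0.0900. H2-Eb1 averaged 185 ± 39.4 in methylparaben and 147 ± 70.0 in vehicle tumors, with 0.48 ± 0.18 and an adjusted p of 0.101. H2-Ab1 averaged 199 ± 43.3 in methylparaben and 159 ± 72.9 in vehicle tumors, with 0.45 ± 0.16 and an adjusted p of 0.0914. These p-values are from limma on log2(scaled CPM + 1), adjusted by Benjamini-Hochberg over all 14487 genes tested.

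The other 4 genes differed less between methylparaben and vehicle. The log2 fold change was 0.23 for H2-DMb1, 0.22 for H2-DMa, 0.18 for Ctss and 0.17 for Ciita, with limma adjusted p of 0.294 to 0.509. With limma, 0 of 8 genes passed at an adjusted p under 0.05, where 1.32% of all genes tested did. At an unadjusted p under 0.05, 4 of 8 were higher in methylparaben, against 11.8% of all genes. Count tests on recovered reads also called 0 of 8, where edgeR called 4.04% and DESeq2 4.42% of all genes. At an unadjusted p under 0.05 edgeR had 3 of 8 higher, against 10.7% of all genes, and DESeq2 had 4, against 11.1%. The median log2 fold change of the 8 was 0.34, and that of all genes 0.01. Of all 14487 genes tested, 7423 were higher in methylparaben.

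Single vehicle libraries moved these calls. Without vehicle replicate 5, the tumor with the highest mean of the 8 genes, limma called 4 of 8, with adjusted p of 0.0369 for H2-Aa, 0.0375 for H2-Ab1, 0.0397 for Cd74 and 0.0455 for H2-Eb1. In that fit limma called 932 genes in all, against 191 with every library kept, so calls rose over the whole table. Without vehicle replicate 11, H2-Aa alone passed with an adjusted p of 0.0463. Without vehicle replicate 8, the tumor with the lowest mean, the log2 fold change of H2-Aa was 0.41 with an adjusted p of 0.169, and those of Ciita and Ctss were 0.10 and 0.11. Over the 59 fits with 1 library left out, the adjusted p of H2-Aa was 0.0369 to 0.169. The genes called in all were 1 to 932 over these fits, with 1 in the fit without vehicle replicate 8.

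Propylparaben tumors likewise had higher mean levels of all 8 genes than vehicle tumors, and no gene passed. This comparison shares its 19 vehicle tumors with the one above, so the 2 are not independent. Cd74 differed most, at 106 ± 32.6 in propylparaben and 80.2 ± 38.0 scaled CPM in vehicle tumors (SD, n = 20 and 19), a log2 fold change of 0.52 ± 0.18 (SE) and a limma adjusted p of 0.118. H2-Ab1 averaged 199 ± 50.04 in propylparaben and 159 ± 72.9 in vehicle tumors, with 0.44 ± 0.16 and a limma adjusted p of 0.136. For H2-Aa the values were 244 ± 70.3 in propylparaben and 199 ± 96.2 in vehicle tumors, with 0.42 ± 0.18 and a limma adjusted p of 0.197. H2-Eb1 averaged 178 ± 52.7 in propylparaben and 147 ± 70.0 in vehicle tumors, with 0.38 ± 0.18 and a limma adjusted p of 0.235.

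Ciita, H2-DMb1, H2-DMa and Ctss had log2 fold changes of 0.25, 0.21, 0.18 and 0.17 for propylparaben against vehicle, with limma adjusted p of 0.356 to 0.444. With limma, 0 of 8 genes passed, where 0.0276% of all genes tested did. At an unadjusted p under 0.05, 4 of 8 were higher in propylparaben, against 8.92% of all genes, as found by limma. The tools edgeR and DESeq2 called 0 of 8, where they called 0.214% and 1.59% of all genes. At an unadjusted p under 0.05 each had 2 of 8 higher, against 7.79% of all genes by edgeR and 8.85% by DESeq2. The median log2 fold change of the 8 was 0.31, and that of all genes -0.00051. Of all 14487 genes tested, 7221 were higher in propylparaben. Without propylparaben replicate 1, the lowest treated tumor, Cd74 passed with a limma adjusted p of 0.0486 and a log2 fold change of 0.59. Over the 59 fits with 1 library left out, limma called 1 to 424 genes in all, against 4 with every library kept.

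Propylparaben and methylparaben tumors were close for all 8 genes. The log2 fold change of propylparaben over methylparaben ran between -0.10 for H2-Eb1 and 0.08 for Ciita. The 95% interval was -0.45 to 0.25 for H2-Aa and for H2-Eb1, -0.35 to 0.36 for Cd74, -0.33 to 0.31 for H2-Ab1, and -0.23 to 0.20 for Ctss. With limma, 0 of 8 genes passed (every adjusted p 1.00) and 0 of 8 had an unadjusted p under 0.05, as with edgeR and DESeq2. Of all genes tested, limma and DESeq2 called 0% and edgeR 0.145%. At an unadjusted p under 0.05 limma had 2.15%, edgeR 3.45% and DESeq2 2.66% of all genes.

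**Figure D2:**
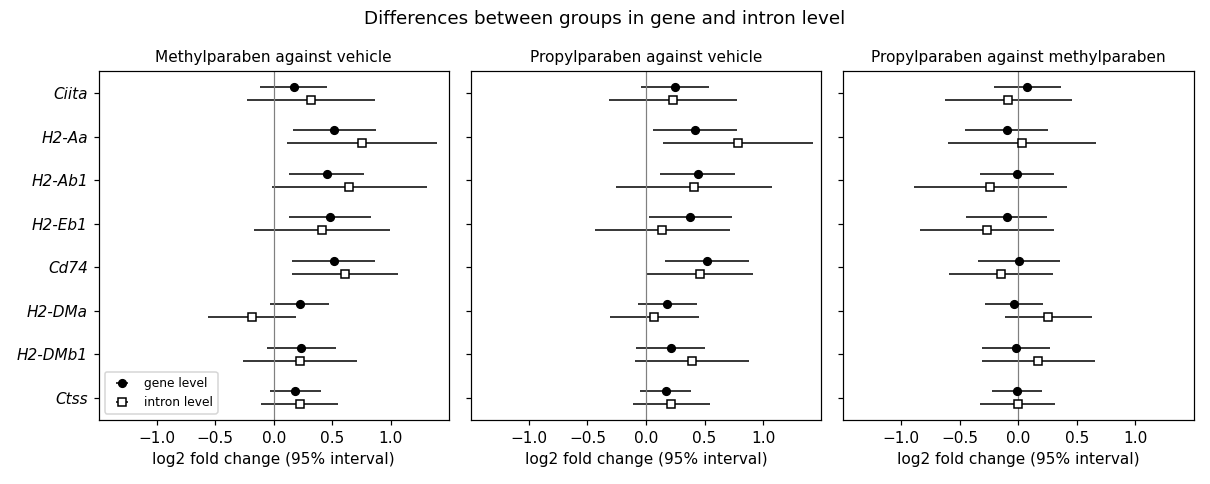
Log2 fold change with its 95% interval for the 8 genes, from limma over 59 tumors, for methylparaben against vehicle, propylparaben against vehicle and propylparaben against methylparaben, at the gene level (filled circles) and the intron level (open squares). Against vehicle, the gene-level intervals of H2-Aa, H2-Ab1, H2-Eb1 and Cd74 lie above 0 before adjustment, and all intervals between the parabens include 0.

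Intron reads, which come mostly from unspliced transcripts, gave a second readout from the same libraries. They were sparse: H2-Ab1 had 0 to 7 intron reads per library, H2-Aa 0 to 19, Cd74 1 to 40 and Ctss 7 to 46. At the intron level 0 of 8 genes passed limma's adjusted threshold in any comparison, where 0% of the 14281 introns tested did. Intron H2-Aa averaged 13.1 ± 5.77 in methylparaben and 9.36 ± 7.81 scaled CPM in vehicle tumors, a log2 fold change of 0.76 with a limma adjusted p of 0.288. Intron Cd74 averaged 29.8 ± 10.2 in methylparaben and 21.3 ± 11.6 in vehicle tumors, with 0.61 and an adjusted p of 0.227 by limma. These 2 of 8 had an unadjusted p under 0.05, against 7.09% of all introns that were higher.

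In propylparaben against vehicle, the same 2 of 8 introns had an unadjusted p under 0.05, against 7% of all introns that were higher. The log2 fold change was 0.79 for intron H2-Aa and 0.46 for intron Cd74, with limma adjusted p of 0.312 and 0.398. Intron H2-DMa was the one of 8 that was lower in methylparaben than in vehicle, with a log2 fold change of -0.18 and a limma adjusted p of 0.723. Between the parabens 0 of 8 introns had an unadjusted p under 0.05, against 3.47% of all introns, and the log2 fold changes lay between -0.27 and 0.26.

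The low end of the range was held by few tumors. By the mean log2(scaled CPM + 1) of the 8 genes, the 10 lowest tumors were 1 methylparaben, 3 propylparaben and 6 vehicle tumors. The 10 highest were 2 methylparaben, 5 propylparaben and 3 vehicle tumors. This mean was 6.60 ± 0.29 in methylparaben, 6.58 ± 0.39 in propylparaben and 6.26 ± 0.64 in vehicle tumors. Vehicle replicate 8 was the lowest of all 59 tumors for 6 of the 8 genes, and vehicle replicate 5 the highest for 5. The SD of log2 H2-Aa was 0.34 in methylparaben, 0.50 in propylparaben and 0.82 in vehicle tumors, and that of log2 Ctss was 0.18, 0.27 and 0.52 in the same groups. No test of the difference in spread was run.

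An earlier analysis of these libraries had set apart 7 libraries lowest on the first principal component of all genes, propylparaben replicate 1 and vehicle replicates 7, 8, 10, 13, 14 and 19. All 7 were among the 8 lowest tumors by the mean of the 8 genes, with 1371339 to 2001124 reads on genes against 1166502 to 2032789 in the other libraries. Without them, the log2 fold change of methylparaben over vehicle was 0.07 for H2-Aa, 0.05 for Cd74, 0.04 for H2-Ab1 and 0.04 for H2-Eb1, with limma adjusted p of 0.933 to 0.970. For propylparaben over vehicle it was 0.13 for Cd74, 0.08 for H2-Ab1, 0.05 for H2-Aa and 0.02 for H2-Eb1. Since 6 of the 7 are vehicle tumors low in these genes, leaving them out brings the groups closer by construction.

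**Figure D3:**
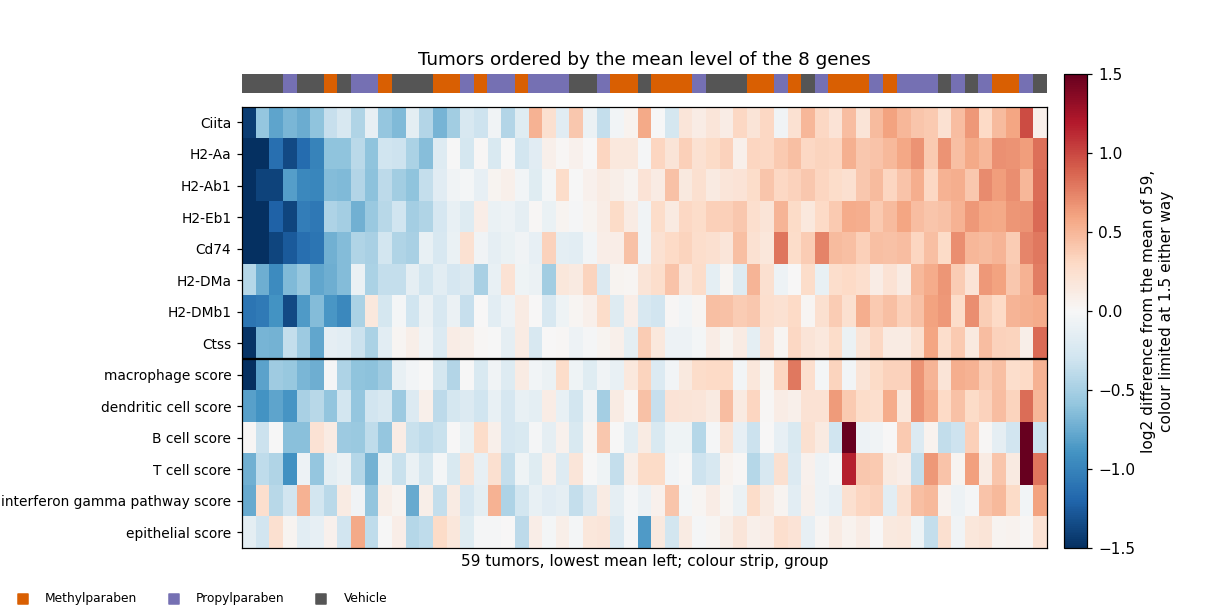
Log2 difference from the mean of 59 tumors for the 8 genes (upper rows) and 6 scores (lower rows, each the mean log2 level of a gene list), with tumors ordered by the mean of the 8 genes and a strip that gives the group. The 8 genes fall together at the left, where 6 of the 10 lowest tumors are vehicle, and the macrophage and dendritic cell scores fall with them. The epithelial score has Pearson r of -0.02 to 0.25 and Spearman rho of 0.09 to 0.35 to the 8 genes.

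Across tumors the 8 genes varied together. Pearson r on group-centred log2 values was 0.66 to 0.98 over the 28 pairs (n = 59), and all 28 passed a two-sided permutation test of 100000 resamples within groups, each at 1e-05 after Benjamini-Hochberg adjustment, the smallest p these permutations can give. Spearman rho was 0.66 to 0.98. The tightest pair was H2-Aa with H2-Eb1 (r = 0.98), followed by H2-Aa with H2-Ab1 and H2-Eb1 with Cd74 (both 0.96). Without the 2 tumors farthest from the median, r was at least 0.60. Within groups r was 0.40 to 0.96 in methylparaben, 0.56 to 0.97 in propylparaben and 0.69 to 0.99 in vehicle tumors. Without the 7 libraries above it was 0.44 to 0.95, with 28 of 28 pairs passing.

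Ratios between the classical chains and the invariant chain varied less across tumors than the genes themselves. The log2 ratio of H2-Aa to H2-Ab1 in scaled CPM was 0.36 ± 0.13 in methylparaben, 0.27 ± 0.18 in propylparaben and 0.30 ± 0.18 in vehicle tumors (SD, n = 20, 20 and 19). Over all tumors its SD was 0.17, where log2(scaled CPM + 1) of H2-Aa itself had an SD of 0.61 and that of H2-Ab1 one of 0.55. The ratio of H2-Eb1 to H2-Ab1, chains of different molecules, had an SD of 0.17 as well, and that of Cd74 to H2-Aa one of 0.19. The peptide editor's chains, H2-DMb1 to H2-DMa, had a wider ratio with an SD of 0.32, from 0.33 in the lowest tumor up to 1.71 in the highest. The ratio to H2-Aa had an SD of 0.36 for Ciita and 0.37 for Ctss. Ciita had its highest r with H2-Eb1 (0.82) among the members, and its lowest with H2-DMa (0.66).

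Gene and intron levels of the same gene varied together for 7 of 8 genes. The r was 0.79 for Ctss, 0.73 for Cd74, 0.70 for H2-Aa, 0.67 for H2-Eb1, 0.62 for Ciita and 0.61 for H2-DMb1, each with a permutation p of 1e-05 and 1.33e-05 after adjustment over 8 relations. For H2-Ab1 it was 0.34, with an adjusted permutation p of 0.0173, on few intron reads. H2-DMa was the exception, with r = 0.05 and an adjusted permutation p of 0.734. Brd2 overlaps the H2-DMa locus on the other strand, and its part in the intron reads of H2-DMa was not tested.

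Scores of cell type markers, none of which contain a member, showed which other transcripts moved with the 8 genes. With the macrophage score (12 markers, among them Csf1r, Adgre1 and the C1q chains) r was 0.69 to 0.86, and with the dendritic cell score (11 markers, among them Xcr1, Clec9a and Itgax) 0.70 to 0.84. With the T cell score (6 markers) r was 0.54 to 0.65, and all 24 of these relations passed. With the interferon gamma pathway score r was 0.33 to 0.49, and all 8 relations passed at adjusted permutation p of 0.00023 to 0.0233. With the B cell score r was 0.03 to 0.35, where Ciita and H2-Eb1 passed at adjusted permutation p of 0.00235 and 0.0439. By rho, Ciita, H2-Aa, H2-Eb1 and Cd74 passed with the B cell score, at adjusted permutation p of 0.0256 to 0.0449. With the epithelial score r was -0.02 to 0.25. Spearman rho with the epithelial score was higher, 0.09 to 0.35. By rho, H2-Eb1, H2-Aa and H2-DMb1 passed, with adjusted permutation p of 0.0195, 0.0249 and 0.025. Single epithelial markers had r to the mean of the 8 genes from -0.38 for Cldn3 to 0.47 for Krt19. Of the 48 relations 34 passed after Benjamini-Hochberg adjustment of two-sided permutation p-values (n = 59). The dendritic cell list was split. Its markers had r to the mean of the 8 genes from -0.19 for Fscn1 to 0.86 for Mgl2, with a median of 0.55. Batf3 had 0.21 and Zbtb46 0.25, while Clec10a had 0.77 and Cd209a 0.75. Macrophage markers had 0.19 for Mertk up to 0.87 for Csf1r, with a median of 0.81.

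The highest r was that of H2-Eb1 with the macrophage score (0.864), and H2-Aa is described here as an example. Its r with the macrophage score was 0.86 (rho 0.83), with an adjusted permutation p of 2.18e-05, and 0.81 without the 2 farthest tumors. Within groups it was 0.59 in methylparaben, 0.84 in propylparaben and 0.94 in vehicle tumors. The macrophage score itself was 5.54 ± 0.31 in methylparaben, 5.57 ± 0.38 in propylparaben and 5.34 ± 0.53 in vehicle tumors. The summed level of the 12 macrophage markers was 626 to 1401 scaled CPM in methylparaben, 521 to 1256 in propylparaben and 271 to 1250 in vehicle tumors, and no marker was at 0 in a group. Its part in the differences between groups was not tested apart from the fit below.

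**Figure D4:**
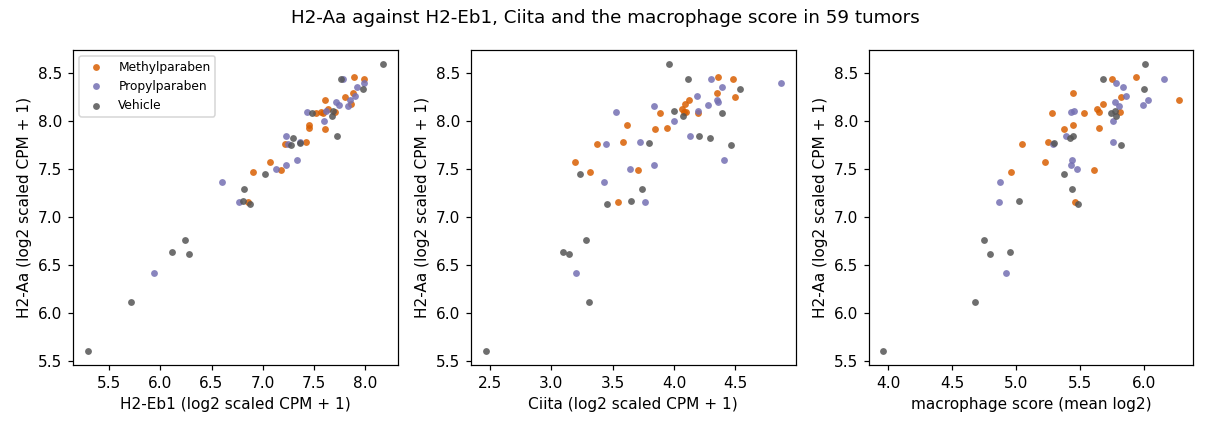
Log2(scaled CPM + 1) of H2-Aa against that of H2-Eb1 (left), that of Ciita (middle) and the macrophage score (right) in 59 tumors, with 1 point per tumor coloured by group. The points of all 3 groups lie along one line for H2-Eb1 (group-centred r = 0.98) and scatter more widely for Ciita (r = 0.81) and the macrophage score (r = 0.86).

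The macrophage, dendritic cell, B cell and T cell scores together took up 64.6% (H2-DMa) to 83.5% (H2-Eb1) of the variance of the 8 genes around the group means. With these 4 scores removed, a setting chosen after the data were seen, 16 of 28 pairs passed. H2-Aa with H2-Eb1 kept r = 0.89, H2-Aa with H2-Ab1 0.80 and H2-Eb1 with Cd74 0.79. No pair with Ciita passed, and r of Ciita with the other 7 genes was -0.03 to 0.22. The SD of log2 Ciita around the group means was 0.45 before and 0.23 after the scores were removed. Ciita rests on few reads per library, so counting noise may make up much of what remained and hide a relation. The part of counting noise was not tested. With the 4 scores as covariates in the limma fit, the log2 fold change of methylparaben over vehicle was 0.28 ± 0.09 for H2-Aa, 0.28 ± 0.08 for Cd74, 0.24 ± 0.07 for H2-Ab1 and 0.24 ± 0.08 for H2-Eb1 (SE), with adjusted p of 0.151 to 0.181. For propylparaben over vehicle it was 0.31 ± 0.09 for Cd74, 0.24 ± 0.08 for H2-Ab1, 0.18 ± 0.09 for H2-Aa and 0.15 ± 0.08 for H2-Eb1. Which cells made the class II transcripts cannot be told from bulk RNA, so such a fit may also remove variation of the 8 genes themselves.

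**Figure D5:**
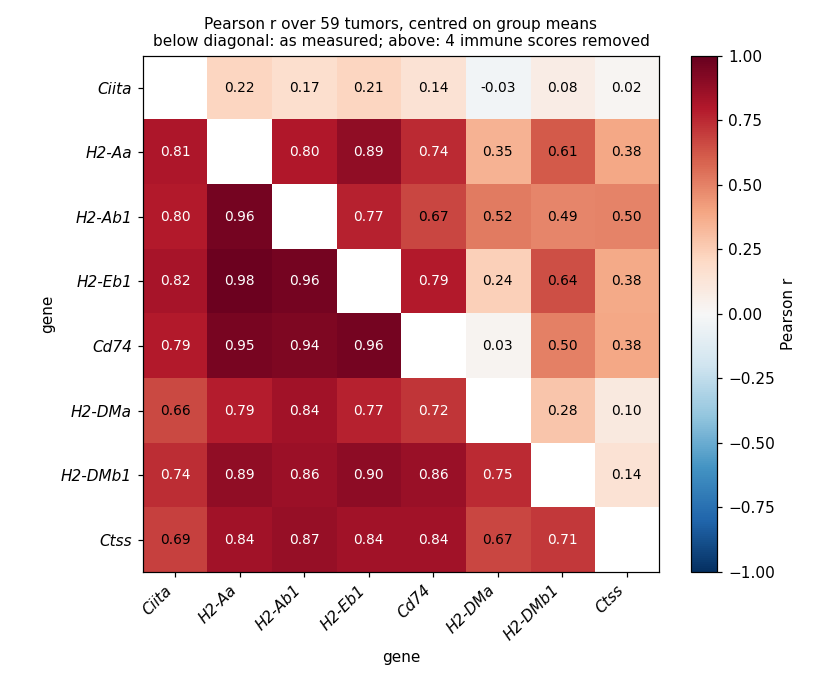
Pearson r between the 8 genes over 59 tumors, on log2 values centred on the group means, below the diagonal as measured and above it with the 4 immune scores removed. Below the diagonal r is 0.66 to 0.98, and above it the block of H2-Aa, H2-Ab1, H2-Eb1 and Cd74 stays at 0.67 to 0.89 while the row of Ciita is -0.03 to 0.22. Ciita rests on few reads per library, and the part of counting noise in its row was not tested.

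The genes most like the mean of the 8, by Pearson r over 59 group-centred tumors among 14479 other genes, were Cybb (0.92), Laptm5 (0.91), Dcn (0.89), Apbb1ip (0.89), Ptprc (0.89), Ccr2 (0.88), Mfap5 (0.88), Fgl2 (0.88), Csf1r (0.87) and C1qa (0.87). Cybb encodes a subunit of the phagocyte NADPH oxidase, Ptprc the leukocyte antigen CD45, Ccr2 a chemokine receptor of monocytes, Csf1r the receptor for the macrophage growth factor CSF1, and C1qa a chain of complement C1q. Dcn and Mfap5 encode matrix proteins, decorin and a microfibril component. The gene most like Ciita was Lsp1 (0.82), a leukocyte protein, and the genes most like Ctss were Cybb (0.90) and Laptm5 (0.89). For H2-Aa, H2-Ab1, H2-Eb1 and Cd74 the 3 most alike genes were in each case the other 3 of this group.

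The factors that bind the class II promoter did not follow the 8 genes as a set. Of 7 such genes tested, 5 had a negative r to the mean of the 8, with a median of -0.21 and values of -0.27 for Rfx5 and -0.24 for Rfxank, both subunits of the RFX complex. Rfxap, another subunit of that complex, had 0.17, and Creb1, which binds next to the X box, had 0.53. Against vehicle 0 of 7 passed limma in either comparison. Nfyb, a subunit of the Y box factor NF-Y, came nearest, with a log2 fold change of -0.14 for methylparaben (adjusted p 0.0999, limma) and -0.10 for propylparaben (adjusted p 0.301).

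Of 10 genes of invariant chain and antigen processing, 0 passed in any comparison, with median log2 fold changes of 0.10 for methylparaben and 0.09 for propylparaben over vehicle. Ctsh, a lysosomal protease, had 0.26 (limma adjusted p 0.124) and 0.21 (0.257) in the same comparisons. March1, the ubiquitin ligase that sends class II molecules from the surface to degradation, had the highest r of this list to the mean of the 8 genes, 0.81. Lgmn, the asparagine endopeptidase that starts invariant chain cleavage, had 0.65.

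Of 14 interferon gamma pathway genes tested, 0 passed in any comparison, and the median log2 fold change was 0.07 for methylparaben and 0.04 for propylparaben over vehicle. Ifngr1, the ligand-binding receptor chain, had 0.21 for methylparaben (limma adjusted p 0.137) and 0.18 for propylparaben (0.244). Ifng itself had 8 reads in all 59 libraries together and was at 0 in 51. Of 9 class I presentation genes 0 passed, and H2-D1 had 0.27 (limma adjusted p 0.169) and B2m 0.25 (0.197) for methylparaben over vehicle. Of 5 costimulation genes 0 passed, with Cd86 at 0.33 for methylparaben (limma adjusted p 0.255) and 0.35 for propylparaben (0.275) over vehicle, and Icosl at -0.31 and -0.23.

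Marker lists of immune and epithelial cells were also without a called gene. Among all 14487 genes tested, 7423 were higher in methylparaben and 7221 in propylparaben than in vehicle tumors. Of 12 macrophage markers, 11 were higher in methylparaben and 12 in propylparaben than in vehicle tumors, with medians of 0.21 and 0.25 on the log2 scale. Markers of a list can vary together, so such counts are not of independent genes. The macrophage score had medians of 5.57 in methylparaben, 5.62 in propylparaben and 5.44 in vehicle tumors, with a vehicle minimum of 3.96. Of 11 dendritic cell markers tested, 9 were higher in methylparaben and 8 in propylparaben than in vehicle tumors, with medians of 0.12 and 0.16. In vehicle tumors 1 of these 11 averaged under 1, so its direction was partly set by the filter. Mgl2 had 0.68 for methylparaben (limma adjusted p 0.178), and Clec9a, a marker of cross-presenting dendritic cells, had 0.35 for propylparaben (0.250). Clec9a averaged only 1.18 scaled CPM over all tumors, close to the filter. Of 7 epithelial markers, 6 were higher in methylparaben and 5 in propylparaben than in vehicle tumors, with medians of 0.06 and 0.04. Krt19, a keratin, had the largest log2 fold change of the list, 0.52 for methylparaben (limma adjusted p 0.0736) and 0.44 for propylparaben (0.157). Of 6 T cell markers tested, 4 were higher in methylparaben and 3 in propylparaben than in vehicle tumors, with medians of 0.03 and 0.05. Among 5 B cell markers, 4 were higher in each, with medians of 0.11 and 0.24. But 3 of these 5 averaged under 1 in vehicle tumors and passed the filter only through treated tumors. Their direction was thus partly set by the filter. The summed level of the 5 had medians of 5.03 in methylparaben, 5.40 in propylparaben and 5.25 in vehicle tumors. Its maxima were 72.0, 151 and 9.19 in the same order. Of these B cell, T cell and epithelial markers, and of the 2 other class II genes tested (H2-DMb2 and H2-Ob), 0 passed in any comparison. Trbc2, a T cell receptor constant chain and the highest T cell marker, had 0.43 for methylparaben over vehicle (limma adjusted p 0.172), and H2-Ob had 0.39 for propylparaben over vehicle (0.359). Of the 2 other class II genes tested, 1 averaged under 1 in vehicle tumors. Propylparaben replicate 17 and methylparaben replicate 15 together held 33.3% of the H2-Ob reads.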

How the data were processed

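Per the submitters' processing notes, the tools were bcl2fastq 2.20.0.422, STAR 2.6.1d and HTSeq 0.10.0, with genome build GRCm38. For the annotation, strand setting, intron definition and normalization tool, the source is not given in the sources used here. From these steps the authors deposited a gene and an intron table of normalized counts, a signal with its own scaling in each table, and no column was left unused. Whole reads were recovered from 100% of values (within 1e-06 reads), and 13.7 to 35.5% of reads per library lay outside annotated features. Positions came from GENCODE M21.

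The members and gene lists were chosen with earlier results of these data known. Libraries were grouped by the treatment label. Genes averaging at least 1 were fitted with limma 3.58.1 (R 4.3.3, trend) on log2(value + 1), in 1 fit of 59 libraries with 1 mean per group, adjusted by Benjamini-Hochberg over all genes tested and called under 0.05. That scale understates changes of low genes. Correlations used group-centred log2 values, numpy 2.4.6 and scipy 1.17.1. Alternatives were other pseudocounts, filters and scalings, only the 2 groups compared, array weights, covariates, libraries left out, edgeR 4.0.16 and DESeq2 1.42.0 (no adjusted p for 1405 and 2528 genes against vehicle). The scripts were tested on simulated data.

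Named genes are the 8 members, the genes of each list that passed or otherwise those with the smallest p (2 per comparison, not all of which are printed), the 10 genes most like the members' mean and the 3 most like each member. Genes named for their correlation within a list, and single low-count genes, were chosen after their values were seen. Some genes that this rule covers are not reported here.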

Additional observations from a re-analysis of the deposited data

How the results depend on the processing

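No paired analysis was possible because nothing in the labels ties a library of one group to a library of another. In no alternative other than leaving out 1 library did any of the 8 genes pass, but the count over all genes did depend on the setting. For methylparaben against vehicle (191 genes called), it was 25 with no filter, 334 with a mean of at least 10, 2 with the 2 groups alone, 1 with the immune scores as covariates, 5 once the 5 libraries of low scaling factor were dropped, 0 once the 7 low libraries named above were dropped, 39 with array weights, 585 by edgeR and 640 by DESeq2. For propylparaben against vehicle (4 called), it was 2 with no filter, 16 with a mean of at least 10, 8 with tumor number as covariate, 31 by edgeR and 231 by DESeq2, and 0 with the 2 groups alone, with the immune scores or without the 7 libraries. Between the parabens (0 called), it was 1 with the immune scores and 21 by edgeR. For introns of methylparaben against vehicle (0 called), it was 6 with a pseudocount of 10, 7 with a mean of at least 10 (H2-Ab1 and H2-Eb1 then untested) and 8 with median-of-ratios scaling. With the immune scores removed, 16 of 28 pairs and 3 of 8 gene to intron relations passed.

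Leaving out 1 library gave 1 to 932 genes called for methylparaben and 1 to 424 for propylparaben against vehicle, 0 to 1 between the parabens, and 0 to 23 and 0 to 10 introns against vehicle. Members called were 0 to 4 for methylparaben and 0 to 1 for propylparaben against vehicle.

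Of 508 alternatives for single genes other than these, 476 kept direction and side of the threshold and 32 changed sign. Without the 7 libraries, log2 fold changes of methylparaben over vehicle were -0.103 for Ciita, -0.0296 for H2-DMa, -0.122 for H2-DMb1 and -0.0965 for Ctss, and with the immune scores -0.0196 for Ciita. Those of propylparaben over vehicle without the 7 libraries were -0.0317 for H2-DMa, -0.0675 for H2-DMb1 and -0.0885 for Ctss. At the intron level without the 7 libraries, methylparaben gave -0.175 for Ciita, -0.101 for H2-Eb1, -0.18 for H2-DMb1 and -0.0978 for Ctss, and propylparaben -0.0692 for Ciita, -0.372 for H2-Eb1 and -0.0808 for Ctss. With the immune scores propylparaben introns gave -0.0867 for Ciita and -0.163 for H2-Eb1. Leaving out 1 library gave -0.0271 to 0.24 for intron H2-Eb1.

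Between the parabens the fold changes lie near 0 and change sign easily. H2-Ab1 was 0.000611 with quantile normalization, 0.0054 with the immune scores, 0.041 without the 7 libraries, 0.00724 with array weights, 0.00758 by edgeR and 0.00782 by DESeq2. Cd74 was -0.0224 without the 5 libraries. H2-DMb1 was 0.0541 without the 7 libraries, 0.000725 by edgeR and 0.00151 by DESeq2. Ctss was 0.014 with quantile normalization, 0.00796 without the 7 libraries, 0.00302 with array weights, 0.00249 by edgeR and 0.00235 by DESeq2. Leaving out 1 library gave -0.0523 to 0.041 for H2-Ab1, -0.0396 to 0.0819 for Cd74, -0.0707 to 0.0541 for H2-DMb1 and -0.0415 to 0.0146 for Ctss. The cause of these changes was not tested.

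Depth limits Ciita, with 11 to 78 reads per library, and most introns.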

Other observations

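B cell markers were far higher in a pair of tumors than in the rest. The 10 B cell markers summed to 176 scaled CPM in propylparaben replicate 17 and to 81.9 in methylparaben replicate 15, while the next highest tumor had 12.9 and the highest vehicle tumor 9.77. H2-Ob, a chain of the peptide editor's inhibitor that B cells express, had 12.7 scaled CPM in propylparaben replicate 17 and 9.52 in methylparaben replicate 15, while no other tumor exceeded 2.74, and the pair held 33.3% of its 180 reads. H2-DMb2 had 22.1 and 9.52 in the same tumors, while no other tumor exceeded 4.91, and the pair held 24.2% of its 355 reads. The pair held 29.5% of the 78 reads of H2-Eb2 and 20% of the 45 reads of H2-Oa, the partner chain of H2-Ob, so most reads of these 4 genes lay in other tumors. H2-Oa had 1.45 and 1.90 in the pair, close to the next highest tumor at 1.22.

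The members themselves were not as extreme in these tumors. By the mean of the 8 genes propylparaben replicate 17 ranked 58 and methylparaben replicate 15 ranked 45 of 59, counted from the lowest. Ciita was highest of all tumors in propylparaben replicate 17, at 28.3 scaled CPM. H2-Ea-ps, which the annotation calls a pseudogene of the I-E alpha chain, had 0 reads in all 59 libraries, beside 23882 reads of H2-Eb1.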
